A study of Mus musculus with 24 samples.

Results

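The comparison described here set male astrocytes that expressed p53 Y202C against male astrocytes with p53 knocked out (p53 KO), across all measured genes. It used 6 of the 24 RNA-seq libraries of the study, 3 for each line, which were chosen by their labels. The study asked how mutations of p53 differ from loss of p53 in male and in female astrocytes. All lines of one sex came from 1 primary culture of cortical astrocytes, made from at least 3 C57BL/6 pups of that sex at postnatal day 1, and every pup carried 1 floxed and 1 deleted Trp53 allele. For the Y202C line, a retrovirus carrying the mutant mouse Trp53 cDNA and GFP was introduced and GFP-positive cells were sorted. Then a lentivirus with Cre recombinase and puromycin resistance was added to remove the floxed allele. The p53 KO line received the Cre lentivirus and puromycin alone, without the retrovirus and without the GFP sort. The mutation, the retrovirus, the sort, and any change that arose in a single line therefore cannot be told apart in this comparison. Both lines lacked the endogenous gene, were grown without further treatment, and were collected between passages 10 and 15. The replicates were separate thaws and platings of 1 line, so the p-values measure the spread between these platings and not the spread between animals.

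p53 is a transcription factor that is stabilized by DNA damage and other stresses and that turns on genes for cell cycle arrest, DNA repair, and cell death. Most cancer mutations change a residue in its DNA binding domain. The mutant protein then often accumulates, because the loop in which p53 induces its own ubiquitin ligase Mdm2 is broken. The tyrosine that Y202C replaces with cysteine lies in this domain. A knockout line therefore serves as the reference in which neither the wild-type nor a mutant protein is present.

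Total counts were 83264966 to 131836636 in the p53 KO libraries and 66162441 to 101576797 in the Y202C libraries, over 14427 genes. Expression is given below as CPM, the count of a gene relative to all counts of its library after TMM scaling, and differences as log2 fold changes of Y202C over p53 KO with their standard errors. Trp53, the gene targeted in both lines, was at 53.7, 50.7, and 48.2 CPM in the p53 KO libraries and at 2444, 2268, and 2259 CPM in the Y202C libraries. Every Y202C library was far above every p53 KO library, as the labels require for a line with a retroviral cDNA. The log2 fold change was 5.51 ± 0.065 (SE derived from the fit of all 24 libraries, n = 3 per line), with an adjusted p of 2.61e-26. CPM of the cDNA cannot be compared with that of the intact gene, which none of these lines carried. Mdm2, the ligase that p53 induces, was at 67.3, 67.9, and 63.9 CPM against 81.7, 86.9, and 91.4 CPM, and rose by 0.38 ± 0.061 on the log2 scale (adjusted p = 5.17e-06). The p53 relative Trp63 was below 1 CPM in every library, and its call (log2 0.94 ± 0.36, adjusted p = 0.0228) was lost without p53 KO replicate 2 (adjusted p = 0.0611) and without Y202C replicate 3 (adjusted p = 0.0798). Of the 6 measured genes of p53, its relatives, and its regulators, 4 were higher and 1 was lower, and 2 were lower without Y202C replicate 3 and in limma.

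The labelled cell type was checked against marker genes. Of 30 astrocyte markers, 24 were in the table, and their summed expression was 5941 to 6260 CPM in p53 KO and 5864 to 6349 CPM in Y202C, so the ranges overlapped. Most of that sum came from Vim, a filament gene that many cultured cells express, at 4079 to 4311 CPM and 4342 to 4863 CPM. The defining mature markers were near 0. Gfap, the astrocyte filament protein, was at 0.29, 0.238, and 0.244 CPM in p53 KO and at 0.15, 0.0271, and 0 CPM in Y202C. Aqp4, a water channel of astrocyte endfeet, was at 0.145, 0.0874, and 0.107 CPM against 1.77, 1.64, and 1.91 CPM. Of the astrocyte markers, 9 were higher, 12 were lower, and 3 did not pass the test. Aldh1l1, an astrocyte folate enzyme, had the largest rise, from 0.508, 0.723, and 0.655 CPM to 29.2, 29.5, and 26.4 CPM (log2 5.47 ± 0.16, adjusted p = 6.99e-19). Gja1, the main gap junction protein of astrocytes, fell by 1.21 ± 0.083 and Sox9, a glial transcription factor, fell by 0.92 ± 0.070 on the log2 scale. The markers thus moved in both directions.

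Summed markers of other cell types were lower in Y202C. Summed fibroblast and meningeal markers, all 11 of which were in the table, were 28285 to 33848 CPM in p53 KO and 9554 to 11329 CPM in Y202C, and Col1a1 and Col1a2 made up most of the sum. Summed endothelial markers, 4 of 8 in the table, were 209 to 231 CPM against 56.7 to 62.6 CPM, and Pecam1, Cldn5, Emcn, and Vwf were not in the table. Cdh5, the cadherin of endothelial junctions, was at 35.5, 31.8, and 32.7 CPM in p53 KO and at 0.17, 0.217, and 0.946 CPM in Y202C (log2 -6.34 ± 0.30). Summed microglial markers, 3 of 12 in the table, were 68.0 to 84.5 CPM against 41.8 to 45.6 CPM. Cx3cr1, Aif1, and P2ry12 were not in the table. Of the 3, 2 were lower and 1, Cd68, was higher. Nearly all of the sum came from Tmem119 in p53 KO but not in Y202C. There Cd68 had 2137, 1883, and 1430 counts, beside 2187, 1456, and 1296 counts of Tmem119. The sums for oligodendrocyte lineage markers (5 of 11 in the table) were 283 to 305 CPM against 155 to 183 CPM, those for neurons (4 of 10) were 122 to 129 CPM against 105 to 110 CPM, and those for mural cells (8 of 10) were 3913 to 4143 CPM against 3174 to 3679 CPM. In each of these 6 lists the ranges of the lines did not overlap. The neuron markers split, since Tubb3, a tubulin that made up most of their sum in p53 KO, went from 87.8, 89.0, and 87.3 CPM to 21.9, 19.7, and 17.6 CPM and Syt1 also fell, while Stmn2 and Map2 rose by 1.21 ± 0.082 and 1.28 ± 0.089. In bulk RNA, fewer cells of a type and less RNA per cell cannot be told apart. The part of these markers in the results below was not tested.

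Most genes differed between the lines. By edgeR's quasi-likelihood test with Benjamini-Hochberg adjustment, 10529 of 14427 genes passed an adjusted p of 0.05 (73.0%). Of these, 5425 were higher in Y202C (37.6% of genes tested) and 5104 were lower (35.4%). Most of these differences were small but exceeded the spread between replicates. The median SD of log2 CPM was 0.077 in p53 KO and 0.116 in Y202C (n = 3 each), the median absolute log2 fold change of called genes was 0.643, and for 10805 genes (74.9%) the libraries of the lines did not overlap. Over 2-fold, 1495 genes were higher (10.4%) and 1654 were lower (11.5%). Over 8-fold, 229 genes were higher and 176 were lower. The median over all genes was 0.012 on the log2 scale. Because so many genes passed, each gene list below is read against these shares and against that median.

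**Figure D1:**
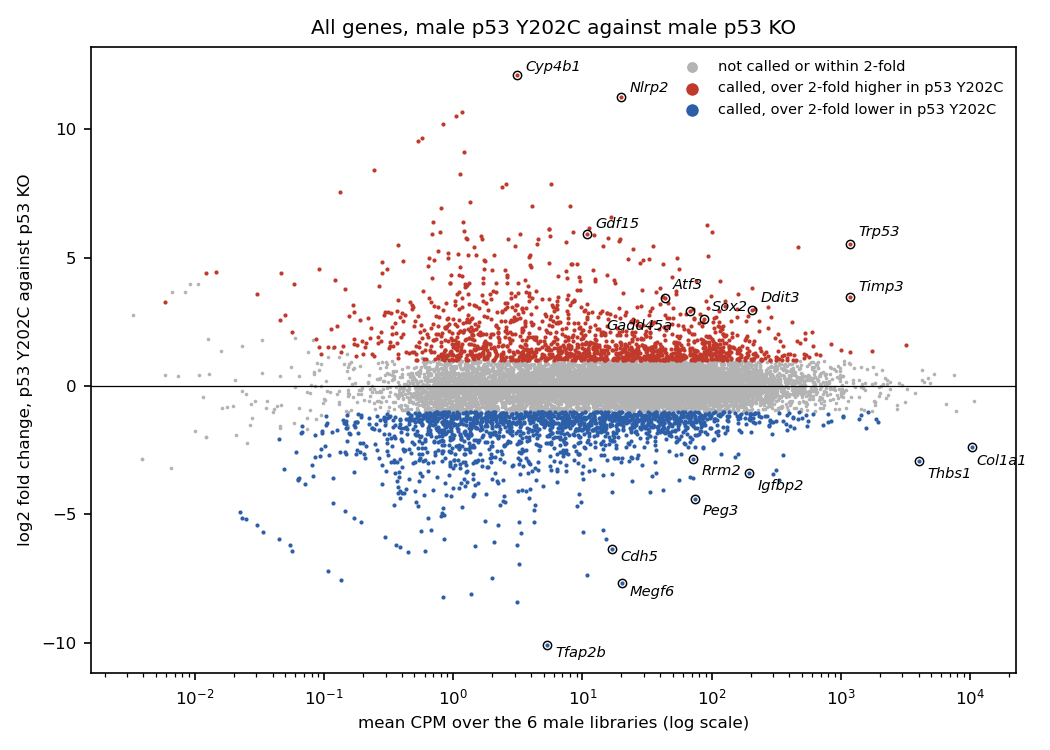
Mean CPM of each gene over the 6 male libraries (horizontal log axis) against the log2 fold change of p53 Y202C over p53 KO (vertical axis), with 1 point per gene. Genes past the test and over 2-fold are colored, 1495 higher in red and 1654 lower in blue, and the ringed genes are described in the text.

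The genes with the largest rises were at or near 0 in p53 KO. Nlrp2, a member of the NLR family of cytoplasmic sensors, had 0, 2, and 3 counts in the p53 KO libraries and was at 38.2, 38.7, and 42.5 CPM in Y202C, which is at least 1439.6-fold higher when a floor of 3 counts per library stands for p53 KO. Cyp4b1, a cytochrome P450 enzyme, had 0 counts in every p53 KO library and was at 6.44, 6.65, and 5.63 CPM in Y202C, at least 226-fold higher. Both were therefore present in one line and at the limit of detection in the other. Rnase1, Ppp1r14c, Ttc29, Tacr1 (the receptor for substance P), and Serpina3n (a protease inhibitor of the acute-phase response) also had 0 counts in every p53 KO library and lay between 0.42 and 2.90 CPM in Y202C, and the call of Ttc29 was lost in DESeq2. Grm8, a glutamate receptor, and Defb1, an antimicrobial peptide, had at most 2 counts per p53 KO library and lay between 2.06 and 2.59 CPM in Y202C. Cd40, a receptor of the TNF family that is best known from antigen-presenting cells, was at 0.0121, 0, and 0.0457 CPM in p53 KO and 5.1, 6.03, and 4.16 CPM in Y202C (log2 7.86 ± 0.51, adjusted p = 1.22e-12). In all, 21 genes called higher had at most 3 counts in every p53 KO library.

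The largest falls mirrored this pattern. Tfap2b, an AP-2 transcription factor of the neural crest and its derivatives, was at 10.3, 11.1, and 10.6 CPM in p53 KO and had 0, 2, and 0 counts in Y202C, which is at least 274-fold lower. Megf6, a protein with EGF-like repeats, went from 36.0, 39.0, and 45.0 CPM to 0.23, 0.176, and 0.153 CPM (log2 -7.70 ± 0.26, adjusted p = 5.22e-18). Rgs4, which shortens signaling by G protein-coupled receptors, went from 20.7, 22.5, and 21.05 CPM to 0.13, 0.108, and 0.153 CPM (log2 -7.36 ± 0.21, adjusted p = 2.43e-19). These 3 genes were well expressed in p53 KO and nearly silent in Y202C. Xirp2, an actin-binding protein of muscle, Aass, an enzyme of lysine breakdown, Morc1, a repressor of transposons in the germline, and the kinase Rps6ka6 also fell, to at most 4 counts in every Y202C library. Nog, a secreted inhibitor of BMP signaling, was below 0.4 CPM in p53 KO and had 0 counts in every Y202C library. In all, 32 genes called lower had at most 3 counts in every Y202C library.

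Genes that p53 is known to activate moved in both directions. Of 29 such targets, 15 were higher (51.7%) and 8 were lower (27.6%) in Y202C, 6 did not pass, and the median log2 fold change was 0.336. Gadd45a, a stress protein of DNA damage and growth arrest, was at 13.8, 16.4, and 17.4 CPM in p53 KO and at 112, 126, and 122 CPM in Y202C. That was the largest rise on the list (log2 2.91 ± 0.10, adjusted p = 1.27e-17), and the libraries were widely separated. Eda2r, a death receptor of the TNF receptor family, went from 1.34, 1.32, and 1.28 CPM to 6.46, 7.22, and 7.31 CPM (2.41 ± 0.18). Trp53inp1, a stress protein of autophagy and cell death, rose by 1.52 ± 0.15 and Sesn2, an inhibitor of mTORC1 signaling that ATF4 also induces, rose by 1.38 ± 0.074. The BH3-only death genes Bbc3 (Puma) and Pmaip1 (Noxa) rose by 1.15 ± 0.080 and 1.08 ± 0.11. Against these, Cdkn1a (p21), the CDK inhibitor that carries much of p53-dependent arrest, was at 18.5, 21.1, and 21.4 CPM and at 19.3, 22.0, and 21.9 CPM (log2 0.05 ± 0.077, adjusted p = 0.580), with overlapping libraries. Plk2, a stress kinase, went from 281, 237, and 241 CPM to 103, 104, and 114 CPM (log2 -1.24 ± 0.078). Pidd1, a death domain adaptor, and Apaf1, the scaffold of the apoptosome, fell by 1.36 ± 0.14 and 0.88 ± 0.068, and Ccng1 fell by 0.68 ± 0.078. Gadd45a overlaps a predicted noncoding gene, and the strand on which reads were counted is not stated in the sources used here.

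Genes of G1 control were mixed as well, with 4 of 15 higher and 7 lower. Ccnd1, the D cyclin that opens the path from G1 to S phase, was at 239, 229, and 224 CPM in p53 KO and at 736, 757, and 696 CPM in Y202C (log2 1.66 ± 0.052, adjusted p = 2.12e-18). Its relative Ccnd2 was at 693, 677, and 722 CPM against 731, 709, and 695 CPM, with overlapping libraries. Rb1, the pocket protein that holds E2F in check, rose by 0.89 ± 0.11 and Cdk4, the kinase partner of D cyclins, rose by 0.32 ± 0.045. Cdkn1c (p57), an imprinted CDK inhibitor, went from 54.3, 70.4, and 67.8 CPM to 22.2, 19.01, and 21.1 CPM (log2 -1.63 ± 0.13). Cdkn2a, the locus of p16 and p19Arf, fell by 0.56 ± 0.11 and remained expressed at 190 to 247 CPM in Y202C.

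**Figure D2:**
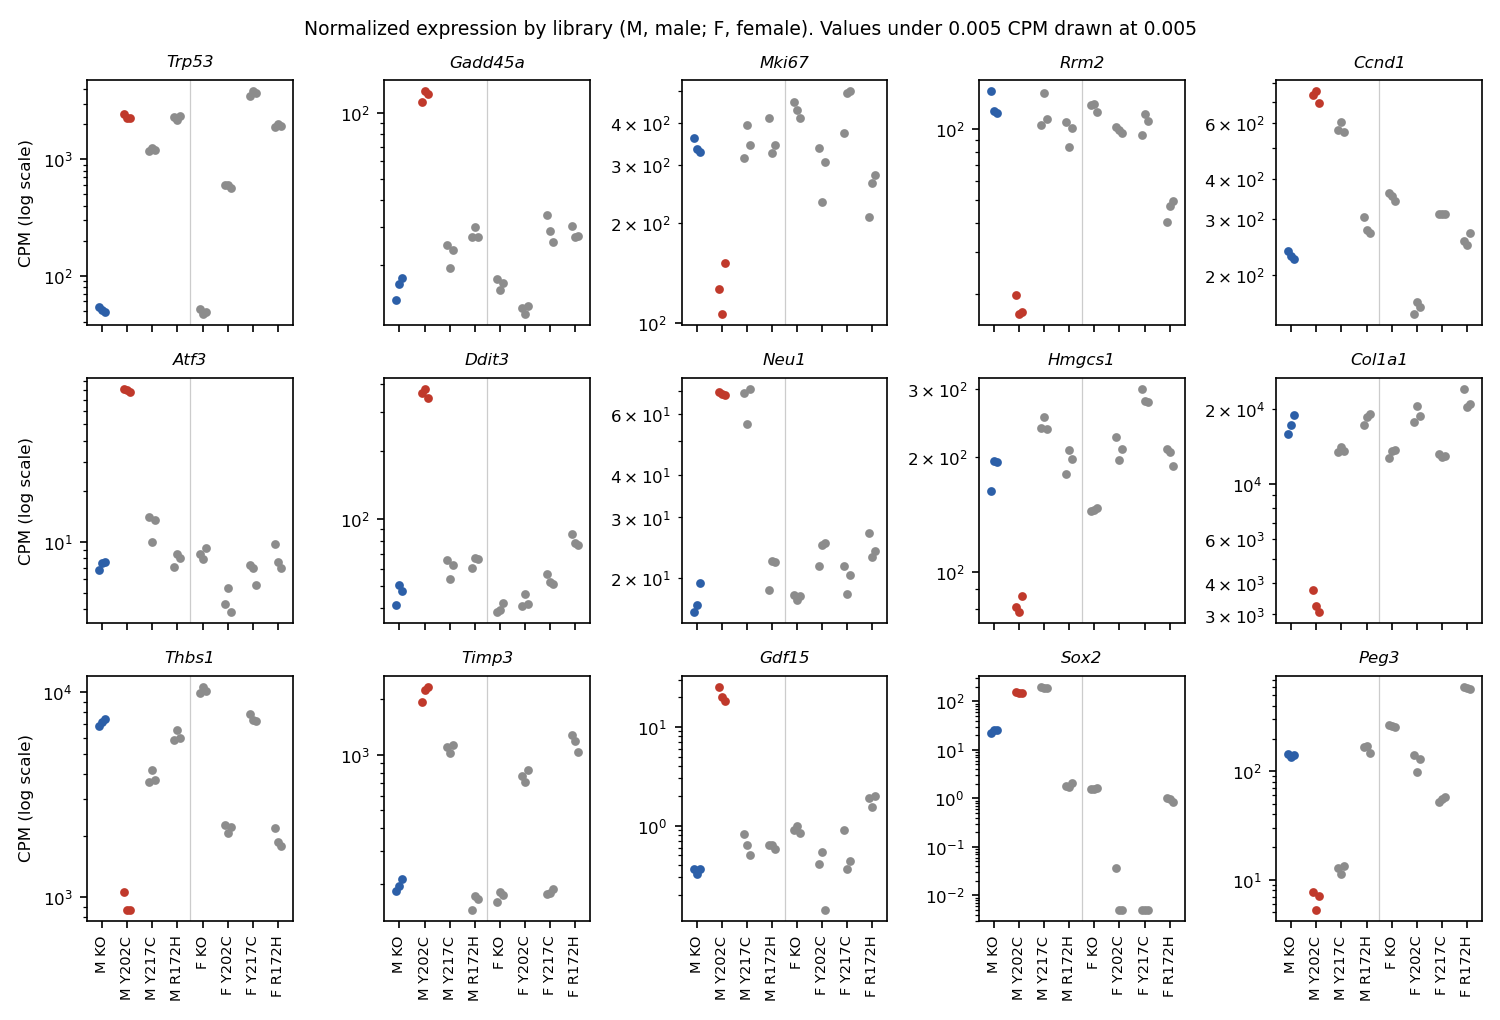
CPM (log axis) of 15 genes in every library of the 8 lines, with 1 point per library, male p53 KO in blue, male p53 Y202C in red, and the other lines in grey, and with values under 0.005 CPM drawn at 0.005. For each gene the red and blue points lie apart, for Trp53 at 48.2 to 53.7 CPM in p53 KO against 2259 to 2444 CPM in Y202C.

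Genes of mitosis fell as a group. Of 28 genes, 26 were lower in Y202C (92.9% against 35.4% of all genes) and 21 of them over 2-fold, with a median log2 fold change of -1.281. Cdc25b, a phosphatase that activates CDK1, was higher (log2 0.29 ± 0.057), and the spindle factor Tpx2 did not pass the test. Many promoters of such genes carry CCAAT boxes, bound by NF-Y, and a CHR element (TTTGAA), bound by the MuvB complexes with which p53 and RB repress the cell cycle. Of 23 promoter windows found for the list in RefSeq (GRCm38.p6, 250 bases before to 50 bases after the start), 19 held CCAAT on either strand (82.6% against 37.6% of 13206 promoter windows of tested genes) and 15 held TTTGAA (65.2% against 11.96%). Both motifs stood together in 15 windows, against 4.85% of all windows. The windows of the 3 genes with both motifs that fell furthest are shown with each match in capitals: Top2a, the topoisomerase that untangles chromosomes (chr11:99024140-99024439, minus strand), Cenpf, a kinetochore protein (chr1:189688037-189688336, minus strand), and Mki67, which coats mitotic chromosomes (chr7:135716330-135716629, minus strand).
Top2a: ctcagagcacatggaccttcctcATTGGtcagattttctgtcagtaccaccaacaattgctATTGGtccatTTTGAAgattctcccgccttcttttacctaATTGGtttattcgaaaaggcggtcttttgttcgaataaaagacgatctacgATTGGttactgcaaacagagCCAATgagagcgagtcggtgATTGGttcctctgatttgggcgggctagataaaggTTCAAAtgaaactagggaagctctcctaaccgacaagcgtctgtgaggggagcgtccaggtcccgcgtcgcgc
Cenpf: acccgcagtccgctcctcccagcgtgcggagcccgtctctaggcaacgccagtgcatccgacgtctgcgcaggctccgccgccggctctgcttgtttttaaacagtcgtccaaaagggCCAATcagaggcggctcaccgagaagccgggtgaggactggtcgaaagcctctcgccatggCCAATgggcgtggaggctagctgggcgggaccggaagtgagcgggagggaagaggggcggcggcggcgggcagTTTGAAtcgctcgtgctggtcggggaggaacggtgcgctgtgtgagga
Mki67: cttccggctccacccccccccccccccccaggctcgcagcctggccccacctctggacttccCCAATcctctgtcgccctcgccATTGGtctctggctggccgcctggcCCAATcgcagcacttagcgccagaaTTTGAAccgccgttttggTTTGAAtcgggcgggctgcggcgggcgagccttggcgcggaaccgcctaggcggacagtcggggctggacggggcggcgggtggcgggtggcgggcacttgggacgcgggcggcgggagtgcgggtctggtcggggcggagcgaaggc
A match to these letters is a description of the sequence and not evidence of a bound site. The NF-Y motif was also in 72.7% of promoter windows of the ATF4 list below, which rose. Its share was 51.9% for p53 targets, 56.8% for replication genes, and 37.0% for lysosomal genes. The CHR motif was in 10.8% of windows of replication genes, which fell as described below. Its share was 0% for the ATF4 list and 14.8% each for p53 targets and lysosomal genes. A link of either motif to the direction of change was not tested.

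Top2a, whose window holds both motifs, was at 440, 394, and 399 CPM in p53 KO and at 148, 127, and 145 CPM in Y202C (log2 -1.55 ± 0.082, adjusted p = 2.82e-14). Mki67, the proliferation marker Ki-67, was at 360, 334, and 328 CPM against 127, 106, and 152 CPM (log2 -1.41 ± 0.14). For Cenpf the values were 108, 96.1, and 96.5 CPM against 36.3, 31.9, and 44.4 CPM (log2 -1.42 ± 0.13). In none of these genes did the libraries overlap, which also held for 74.9% of all genes. The largest fall of the list was in Mybl2, the MuvB partner that activates genes of S phase and mitosis, from 70.8, 56.1, and 55.3 CPM to 13.3, 12.3, and 11.4 CPM (log2 -2.30 ± 0.13). Kif20a, a kinesin of cytokinesis, fell by 1.87 ± 0.088, Birc5 (survivin) by 1.79 ± 0.10, and Foxm1, the transcription factor of G2 genes, by 1.62 ± 0.088. Kif20a overlaps Cdc23.

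Replication genes fell beside them. Of 42 genes, 38 were lower (90.5%) and 22 of those over 2-fold, with a median of -1.007. Rrm2, the regulated subunit of ribonucleotide reductase that makes deoxynucleotides, was at 144, 119, and 116 CPM in p53 KO and at 19.8, 16.4, and 16.9 CPM in Y202C (log2 -2.83 ± 0.12, adjusted p = 4.91e-16). Its partner Rrm1 fell from 212, 188, and 181 CPM to 77.4, 71.3, and 74.6 CPM (-1.38 ± 0.080). Cdc6, which loads the MCM helicase at origins, fell by 2.44 ± 0.12 and the thymidine kinase Tk1 by 2.16 ± 0.12. Among the subunits of the MCM helicase, Mcm3, Mcm4, Mcm5, Mcm6, and Mcm7 fell by 0.72 to 1.53. Mcm2 was at 183, 160, and 155 CPM against 203, 201, and 178 CPM and Cdt1, the other loading factor, at 78.5, 71.7, and 71.7 CPM against 88.5, 81.1, and 77.6 CPM. Both had overlapping libraries, and their calls as higher (adjusted p = 0.0229 and 0.0392) were lost without p53 KO replicate 2 or 3 or Y202C replicate 1 or 2, with an adjusted p of 0.0730 to 0.107 for Mcm2 and of 0.0538 to 0.211 for Cdt1. The sliding clamp Pcna fell by 0.54 ± 0.072. The G1/S cyclins Ccne1 and Ccne2 fell by 1.48 ± 0.12 and 1.90 ± 0.15, so the fall in cycle genes stood beside the rise in Ccnd1 described above. In a separate plate assay, the study reported that male Y202C astrocytes grew more than p53 KO astrocytes. The lower RNA of mitosis and replication genes is therefore no measure of slower growth, and its relation to growth was not tested.

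**Figure D3:**
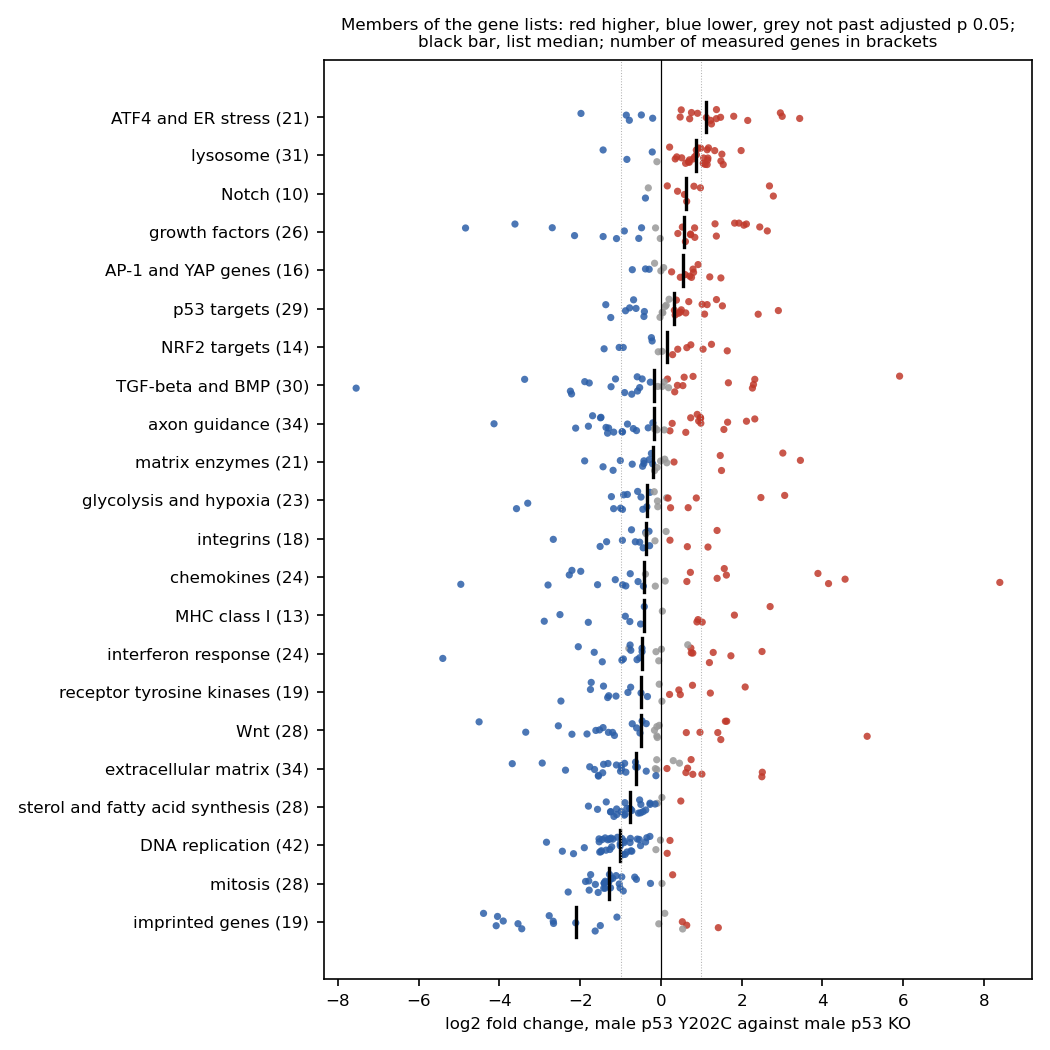
Log2 fold change of male p53 Y202C over male p53 KO for each measured member of 22 gene lists, with 1 point per gene (red called higher, blue called lower, grey not past the test), a black bar at each list median, and dotted lines at a 2-fold change. The mitosis, replication, sterol, and imprinted lists lie mostly below 0, and the ATF4 and lysosome lists mostly above.

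Genes of the integrated stress response rose. In this response, phosphorylation of eIF2alpha favors translation of ATF4, which turns on genes of amino acid supply, while XBP1 and ATF6 respond to unfolded protein in the endoplasmic reticulum. Of 21 genes on a list of both branches, 16 were higher (76.2% against 37.6% of all genes), 11 of them over 2-fold, and 5 were lower, with a median of 1.126. ATF4 binds with C/EBP partners to elements of the form TGATGNAA. This motif was searched after the values were seen and was in 6 of 22 promoter windows of the list (27.3%) against 2.26% of all 13206 windows, on either strand. The windows of Atf3 (chr1:191183284-191183583, minus strand), Trib3 (chr2:152344011-152344310, minus strand), and Chac1 (chr2:119350992-119351291, plus strand), in GRCm38.p6 from RefSeq, are shown with the match in capitals, since these genes were among the largest rises.
Atf3: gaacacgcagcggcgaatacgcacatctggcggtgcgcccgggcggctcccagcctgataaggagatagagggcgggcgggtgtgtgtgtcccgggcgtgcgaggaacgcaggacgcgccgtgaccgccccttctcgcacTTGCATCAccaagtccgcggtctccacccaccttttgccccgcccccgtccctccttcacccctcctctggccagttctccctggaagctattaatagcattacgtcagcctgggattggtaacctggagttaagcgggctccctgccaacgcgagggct
Trib3: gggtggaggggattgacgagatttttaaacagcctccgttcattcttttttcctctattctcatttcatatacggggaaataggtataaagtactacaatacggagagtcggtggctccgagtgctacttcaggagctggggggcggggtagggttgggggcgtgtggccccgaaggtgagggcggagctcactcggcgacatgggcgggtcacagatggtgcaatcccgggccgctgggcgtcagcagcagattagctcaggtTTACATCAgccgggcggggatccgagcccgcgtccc
Chac1: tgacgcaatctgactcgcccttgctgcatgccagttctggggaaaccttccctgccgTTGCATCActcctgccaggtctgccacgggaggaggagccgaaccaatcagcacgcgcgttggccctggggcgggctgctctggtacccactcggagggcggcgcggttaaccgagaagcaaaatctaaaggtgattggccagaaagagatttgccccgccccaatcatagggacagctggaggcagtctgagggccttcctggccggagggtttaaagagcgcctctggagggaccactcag
The windows cover only the sequence next to the start, and motifs elsewhere were not searched.

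Atf3, a stress-induced transcription factor, was at 6.86, 7.50, and 7.56 CPM in p53 KO and at 81.1, 79.8, and 77.5 CPM in Y202C (log2 3.44 ± 0.13, adjusted p = 9.37e-17). Trib3, a pseudokinase that dampens ATF4 activity, went from 71.2, 91.7, and 91.2 CPM to 414, 376, and 341 CPM (2.15 ± 0.11). Chac1, which degrades glutathione, went from 45.9, 56.5, and 57.0 CPM to 194, 194, and 170 CPM (1.81 ± 0.10). All 3 had clearly separated libraries. Ppp1r15a (Gadd34), the phosphatase subunit that restores translation, rose by 3.01 ± 0.081. Ddit3 (Chop) was at 41.5, 50.7, and 47.6 CPM against 365, 380, and 345 CPM (2.96 ± 0.080), and its overlapping neighbor Mars changed by 0.25. Atf4 itself rose by 1.23 ± 0.049, from 369, 395, and 377 CPM to 891, 930, and 859 CPM. Genes of serine and asparagine synthesis rose less, with Psph at 1.48 ± 0.061, Asns at 0.91 ± 0.048, and Phgdh at 0.71 ± 0.076. The XBP1 and ATF6 genes divided, since Herpud1 and Dnajb9, which are known from these branches, rose by 1.37 ± 0.074 and 0.48 ± 0.13. The 5 genes that fell were Sdf2l1 (-1.98 ± 0.11), Xbp1 (-0.86 ± 0.058), Creld2, Hsp90b1, and Hspa5 (BiP), the last at 1108, 1118, and 1148 CPM against 986, 978, and 967 CPM. Gdf15, a stress cytokine induced by p53 and by ATF4, had one of the larger rises outside this list, from 0.363, 0.326, and 0.366 CPM to 25.4, 20.1, and 18.2 CPM (log2 5.92 ± 0.28, adjusted p = 4.51e-15).

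Lysosomal genes were also raised. Of 31 measured genes, 27 were higher (87.1%), 13 of them over 2-fold, 3 were lower, and the median was 0.881. The transcription factors TFEB and TFE3 bind a CLEAR element whose core is TCACGTG. This motif, searched after the values were seen, was in 7 of 27 promoter windows of the list (25.9%) against 5.75% of all windows on either strand, and a palindromic TCACGTGA holds overlapping matches on both strands. The windows of Ctsa, a carboxypeptidase that protects other enzymes of the lysosome (chr2:164833523-164833822, plus strand), and Gla, alpha-galactosidase A (chrX:134600956-134601255, minus strand), in GRCm38.p6 from RefSeq, show the match in capitals.
Ctsa: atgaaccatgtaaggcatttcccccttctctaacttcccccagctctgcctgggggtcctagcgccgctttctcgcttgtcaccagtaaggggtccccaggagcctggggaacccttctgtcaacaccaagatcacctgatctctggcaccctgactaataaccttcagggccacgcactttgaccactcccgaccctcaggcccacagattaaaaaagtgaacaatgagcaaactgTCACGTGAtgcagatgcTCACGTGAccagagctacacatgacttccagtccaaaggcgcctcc
Gla: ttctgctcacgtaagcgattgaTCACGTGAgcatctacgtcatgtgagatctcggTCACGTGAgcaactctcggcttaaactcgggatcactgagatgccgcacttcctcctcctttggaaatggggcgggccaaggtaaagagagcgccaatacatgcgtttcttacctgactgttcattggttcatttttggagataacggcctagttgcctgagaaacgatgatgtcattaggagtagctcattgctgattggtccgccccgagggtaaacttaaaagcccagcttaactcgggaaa
Ctsa was at 204, 216.9, and 220 CPM in p53 KO and at 474, 520, and 460 CPM in Y202C (log2 1.18 ± 0.074), and it overlaps Neurl2. Gla was at 9.93, 10.3, and 10.5 CPM against 19.96, 19.6, and 21.6 CPM (0.99 ± 0.081). The sialidase Neu1 had the largest rise, from 15.9, 16.7, and 19.3 CPM to 69.4, 68.8, and 68.2 CPM (1.99 ± 0.095, adjusted p = 4.57e-15). The protease cathepsin L (Ctsl) went from 300, 325, and 314 CPM to 822, 969, and 951 CPM (1.55 ± 0.065). Hexa, a lysosomal glycosidase that acts on gangliosides, rose by 1.49 ± 0.079. Psap, the precursor of the saposins that help break down sphingolipids, was the most abundant member with Lamp1 and went from 631, 671, and 698 CPM to 1747, 1747, and 1551 CPM (1.33 ± 0.082). Ctsk and Ctsh were the clear exceptions, with falls of 1.43 ± 0.11 and 0.84 ± 0.084. Cd68, a lysosomal membrane protein that is counted among the microglial markers above, went from 3.61, 3.21, and 3.78 CPM to 21.4, 25.5, and 21.8 CPM (2.70 ± 0.14), while the summed microglial markers were lower.

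Lipid synthesis moved the other way. Of 28 genes of sterol and fatty acid synthesis, most of them targets of the SREBP transcription factors, 25 were lower (89.3%) and 8 of these over 2-fold, with a median of -0.758. Hmgcs1, the enzyme that feeds the mevalonate pathway, was at 162, 194, and 193 CPM in p53 KO and at 80.7, 78.5, and 86.7 CPM in Y202C (log2 -1.16 ± 0.069, adjusted p = 2.75e-13). Hsd17b7, which acts late in cholesterol synthesis, had the largest fall (-1.79 ± 0.076), followed by the fatty acid elongase Elovl6 (-1.57 ± 0.082) and fatty acid synthase Fasn, from 848, 766, and 789 CPM to 367, 299, and 274 CPM (-1.35 ± 0.079). Msmo1 was the exception, with a rise of 0.49 ± 0.067. Srebf1, a master regulator of the pathway, fell by 0.72 ± 0.071, and Srebf2 was at 424, 438, and 453 CPM against 463, 414, and 360 CPM (adjusted p = 0.251).

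Glycolysis and hypoxia genes fell in part. Of 23 genes, 13 were lower, 6 were higher, and the median was -0.347. The lactate exporter Slc16a3 (MCT4) went from 138, 124, and 133 CPM to 12.3, 11.1, and 9.47 CPM (log2 -3.58 ± 0.10, adjusted p = 4.20e-19). Egln3, a prolyl hydroxylase that marks HIF for degradation, fell by 3.30 ± 0.10. The abundant enzymes Eno1, Ldha, and Gapdh fell by 1.23 ± 0.076, 0.95 ± 0.081, and 0.92 ± 0.090. Other hypoxia-induced genes rose, so the list did not move as a unit. Ndrg1, a gene induced by hypoxia and differentiation, went from 52.6, 63.1, and 57.8 CPM to 490, 506, and 460 CPM (3.07 ± 0.090), the carbonic anhydrase Car9 rose by 2.48 ± 0.12, and the glucose transporter Slc2a1 by 0.88 ± 0.071.

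Extracellular matrix genes were mostly lower in Y202C. Of 34 genes, 21 were lower (61.8%), 12 of these over 2-fold, 8 were higher, and the median was -0.625. Col1a1, the main chain of type I collagen and the most abundant gene of the list in p53 KO, was at 15819, 17160, and 18903 CPM in p53 KO and at 3759, 3258, and 3067 CPM in Y202C (log2 -2.36 ± 0.081, adjusted p = 8.76e-18). Thbs1, a matrix protein that can activate latent TGF-beta, was at 6865, 7201, and 7425 CPM against 1062, 867, and 870 CPM (-2.94 ± 0.085), and Thbs2 had the largest fall, from 561, 638, and 666 CPM to 46.9, 54.2, and 44.2 CPM (-3.68 ± 0.089). The fibrillar collagen partners Col1a2, Col3a1, and Col5a1 fell by 0.98, 1.64, and 1.42, and fibronectin (Fn1) by 0.58. The summed fibroblast markers, which share Col1a1, Col1a2, and Col3a1 with this list, were 28285 to 33848 CPM in the same p53 KO libraries and 9554 to 11329 CPM in Y202C. Without those shared genes, the fibroblast markers Tbx18 and Foxc1, both transcription factors of meningeal and mural cells, fell by 1.54 ± 0.061 and 0.89 ± 0.053, and Thy1, Dcn, and Twist1 rose by 0.40, 0.83, and 0.28. Some basement membrane genes rose instead. Col18a1, the source of endostatin, went from 58.6, 72.4, and 77.4 CPM to 396, 421, and 374 CPM (2.51 ± 0.11), the laminin chain Lama5 rose by 2.503 ± 0.10, and Lamb2 by 1.02 ± 0.082, while Nid1 and the type IV collagen chain Col4a1 fell by 1.55 ± 0.047 and 0.62 ± 0.056.

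Among 21 measured genes that cut or cross-link matrix, 11 were lower and 5 were higher. Timp3, an inhibitor of metalloproteinases that stays bound to matrix, was at 182, 196, and 213 CPM in p53 KO and at 1932, 2231, and 2328 CPM in Y202C (log2 3.46 ± 0.092, adjusted p = 9.07e-20). Timp3 lies within an intron of Syn3, whose mean was 0.375 CPM in p53 KO and 2.15 CPM in Y202C. The stromelysin genes Mmp11 and Mmp3 rose by 1.47 ± 0.092 and 3.02 ± 0.35, Mmp3 remaining below 7 CPM. Loxl2, which cross-links collagen, went from 458, 458, and 478 CPM to 127, 117, and 132 CPM (-1.89 ± 0.061), and the gelatinase Mmp2 fell by 1.00 ± 0.063. Integrins, the receptors for matrix, were lower for 11 of 18 genes and higher for 4. The collagen receptor chain Itga2 had the largest fall (-2.67 ± 0.22) and Itgb8, which releases active TGF-beta, the largest rise (1.39 ± 0.084), while Itgb1, the chain shared by most of them, was at 1646, 1606, and 1627 CPM against 1412, 1400, and 1598 CPM (adjusted p = 0.0518). Of 11 genes of mesenchymal transition, 7 were higher and 4 were lower. Snai1, a repressor of epithelial genes, fell from 97.4, 106, and 104 CPM to 20.8, 22.5, and 21.5 CPM (-2.25 ± 0.061), Zeb2 rose by 0.69 ± 0.099, and the cadherin Cdh13 rose from 7.37, 8.70, and 9.28 CPM to 138, 151, and 142 CPM (4.08 ± 0.12).

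Growth factor genes moved in both directions, with 15 of 26 higher and 9 lower. Pdgfb, a mitogen for glia and mural cells, was at 12.9, 12.2, and 13.5 CPM in p53 KO and at 86.2, 81.8, and 72.0 CPM in Y202C (log2 2.64 ± 0.10, adjusted p = 7.03e-17). Gas6, the ligand of the TAM receptors, rose by 2.45 ± 0.12, and its receptors Mertk and Axl rose by 2.09 ± 0.096 and 0.48 ± 0.053. Pdgfd rose by 2.12 ± 0.081, and Gdnf, a survival factor for neurons, by 1.94 ± 0.087. The heparin-binding factors midkine (Mdk) and pleiotrophin (Ptn) fell by 4.84 ± 0.24 and 2.69 ± 0.17. Hgf, the ligand of Met, went from 34.5, 40.2, and 42.5 CPM to 8.68, 8.69, and 9.27 CPM (-2.14 ± 0.098). Of 19 receptor tyrosine kinases, 11 were lower and 6 were higher. Egfr, the most frequently amplified receptor of glioblastoma, was at 124, 116, and 124 CPM against 56.6, 50.4, and 61.1 CPM (-1.11 ± 0.070), and Pdgfra fell by 1.32 ± 0.12. Pdgfra is also a marker of the oligodendrocyte lineage, whose sum was 283 to 305 CPM against 155 to 183 CPM. Flt1 and Kdr, the VEGF receptors, fell by 1.74 ± 0.077 and 1.42 ± 0.15 and are also endothelial markers, whose sum was 209 to 231 CPM against 56.7 to 62.6 CPM, while the ligand Vegfa rose by 0.74 ± 0.050. Of 7 genes that bind insulin-like growth factors, Igfbp2 fell from 300, 385, and 390 CPM to 36.6, 34.2, and 31.6 CPM (-3.39 ± 0.12), Igfbp3 rose from 23.7, 25.6, and 25.1 CPM to 124, 147, and 132 CPM (2.44 ± 0.13), 3 more fell, and 2 did not pass.

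Of 30 measured genes of TGF-beta and BMP signaling, 15 were lower and 11 were higher. Among the ligands, Tgfb3 fell by 1.77 ± 0.070 and Bmp6 rose by 1.67 ± 0.082. The secreted BMP inhibitor Grem1 went from 37.7, 37.5, and 42.9 CPM to 183, 193, and 204 CPM (log2 2.30 ± 0.094), while the activin inhibitor Fst fell by 2.24 ± 0.15. Ltbp2, a matrix protein of the latent TGF-beta binding family, fell by 3.38 ± 0.084, and the TGF-beta-induced matrix protein Tgfbi by 2.21 ± 0.15. The Id genes, which encode inhibitors of basic helix-loop-helix factors, split, with Id4 up by 2.27 ± 0.11, Id1 up by 0.80 ± 0.11, and Id2 and Id3 down by 1.89 ± 0.11 and 1.12 ± 0.078. Of 10 measured Notch pathway genes, 8 were higher and 1 was lower. The Notch targets Nrarp and Hey1 went from 1.03, 0.867, and 1.16 CPM to 7.98, 6.47, and 6.62 CPM (2.79 ± 0.20) and from 1.75, 1.49, and 1.87 CPM to 11.1, 11.9, and 9.97 CPM (2.69 ± 0.14). The receptor Notch1 rose by 0.98 ± 0.078 and the ligand Jag1 by 0.82 ± 0.066, Notch2 fell by 0.38 ± 0.061, and Hes1 and Notch3 (log2 0.16 ± 0.066 and 0.41 ± 0.18) lost their calls without Y202C replicate 1, at an adjusted p of 0.154 and 0.217, and without several other single libraries. Of 28 Wnt pathway genes, 16 were lower and 7 were higher. The secreted modulator Sfrp2 went from 16.2, 18.2, and 22.0 CPM to 1.05, 0.772, and 0.58 CPM (-4.50 ± 0.28), Wnt2 fell by 3.35 ± 0.18, and the Wnt5a receptor Ror2 fell from 58.5, 58.2, and 61.1 CPM to 18.5, 16.7, and 14.7 CPM (-1.83 ± 0.061). Wnt7a rose by 5.11 ± 0.81 and remained between 2.35 and 3.35 CPM. The Wnt target Axin2 fell by 0.52 ± 0.17 (adjusted p = 0.00990, and 0.0810 without Y202C replicate 1), and the transcription factors Tcf7 and Lef1 moved in opposite directions, by 1.41 ± 0.085 and -1.43 ± 0.089.

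Immune genes moved in both directions. Of 24 measured cytokine, chemokine, and acute-phase genes, 9 were higher and 12 were lower. Ccl2, which attracts monocytes, was at 57.4, 59.3, and 57.2 CPM in p53 KO and at 13.8, 17.1, and 13.0 CPM in Y202C (log2 -1.99 ± 0.11), and its neighbor in the cluster Ccl7 fell by 2.20 ± 0.10. The alarmin Il33 fell by 2.27 ± 0.19, and Il1rl1, which encodes its receptor, by 1.57 ± 0.074. Csf1, the growth factor of macrophages and microglia, went from 578, 540, and 548 CPM to 1515, 1403, and 1462 CPM (1.39 ± 0.049, adjusted p = 1.65e-17). The complement gene C3 rose from 0.979, 1.35, and 1.59 CPM to 25.6, 24.2, and 21.6 CPM (4.16 ± 0.17). Of 24 interferon-stimulated genes, 12 were lower and 7 were higher, or 4 higher without p53 KO replicate 1 and in limma. Irf1, a transcription factor of the interferon response, fell from 40.2, 46.5, and 47.2 CPM to 11.6, 10.9, and 9.87 CPM (-2.05 ± 0.085), while the antiviral membrane proteins Bst2 and Ifitm3 rose by 2.51 ± 0.18 and 1.20 ± 0.11. In MHC class I the parts of the pathway separated. The MHC activator Nlrc5 rose by 2.71 ± 0.16, the heavy chain H2-K1 went from 38.4, 46.1, and 47.6 CPM to 161, 162, and 146 CPM (1.82 ± 0.11), and B2m rose by 0.92 ± 0.084, while the immunoproteasome subunit Psmb8 and the peptide transporter Tap1 fell by 2.89 ± 0.26 and 1.80 ± 0.20. MHC heavy chain genes are close paralogs, so their counts are uncertain.

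Smaller or mixed groups were as follows. Of 14 NRF2 targets, 7 were higher and 5 were lower, with Gstm1 up by 1.65 ± 0.089 and Gsta4 and Nqo1 down by 1.41 ± 0.13 and 1.03 ± 0.091. Gstm1 belongs to a family of similar genes, and its counts are uncertain for that reason. Of 34 axon guidance genes, 17 were lower and 13 were higher. The netrin receptor Unc5c fell from 63.0, 62.6, and 64.5 CPM to 3.47, 3.52, and 3.86 CPM (log2 -4.13 ± 0.092, adjusted p = 5.74e-21), and Ntn1, its ligand, rose from 43.5, 41.6, and 45.2 CPM to 212, 186, and 168 CPM (2.12 ± 0.094). The semaphorin coreceptors Nrp2 and Nrp1 moved apart, by 1.65 ± 0.057 and -1.29 ± 0.083. Of 16 AP-1 and YAP genes, 10 were higher and 3 were lower, with Ankrd1 up by 1.49 ± 0.11 and Fos down by 0.71 ± 0.15. Of 78 ribosomal protein genes, 46 were higher and 9 were lower, none over 2-fold, with a median of 0.238. Of 13 clustered protocadherins, 9 were lower and 1 was higher, and of 6 Hox genes 2 were higher (0 without p53 KO replicate 1) and 1 was lower, and members of both families share sequence.

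Imprinted genes, which are expressed from 1 parental allele and of which many control fetal growth, had the lowest median of the lists. Of 19 measured, 13 were lower, all over 2-fold, 3 were higher, and the median was -2.109. Peg3, a paternally expressed zinc finger gene, was at 145, 136, and 143 CPM in p53 KO and at 7.73, 5.28, and 7.03 CPM in Y202C (log2 -4.39 ± 0.12, adjusted p = 2.53e-19). Grb10, an adaptor that restrains insulin and IGF signaling, went from 521, 547, and 560 CPM to 49.3, 45.4, and 54.6 CPM (-3.45 ± 0.064). The maternally expressed noncoding RNAs of the Dlk1-Meg3 cluster, Rian, Mirg, and Meg3, fell by 3.54 ± 0.066, 3.91 ± 0.16, and 2.77 ± 0.10, and the paternally expressed Dlk1 of that cluster by 2.66 ± 0.19. H19 was at 44.6, 58.5, and 59.0 CPM against 54.2, 62.9, and 56.7 CPM, with overlapping libraries, and Igf2 rose by 0.53 ± 0.16. Thus both maternally and paternally expressed genes fell, and the Igf2-H19 pair did not. Of 7 genes of the Y chromosome, Kdm5d, Uty, Ddx3y, and Eif2s3y fell by 1.71 to 2.15, the pseudogene Mid1-ps1 rose by 0.40 ± 0.15 (adjusted p = 0.0238, and 0.103, 0.0657, and 0.0820 without p53 KO replicate 1 or 2 or Y202C replicate 1), and Gm47283 and Gm21742 (log2 0.11 ± 0.14 and 0.41 ± 0.23) did not pass. Ddx3y, an RNA helicase, was at 63.3, 66.1, and 62.6 CPM in p53 KO and at 17.2, 18.7, and 20.6 CPM in Y202C. The 4 genes that fell were also lower in male Y217C than in p53 KO, with a median of -1.173. In male R172H 0 of the 4 passed, with a median of -0.131. All 4 were lower in Y202C than in either of these lines. For the genes that fell, fewer Y-bearing cells and less expression per cell cannot be told apart here.

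Whole chromosomes were shifted by small amounts. The median log2 fold change was 0.385 over 489 genes of chromosome 19, where 62.0% of genes were higher, and 0.288 over 938 genes of chromosome 4, where 53.4% were higher. On the Y chromosome it was -1.71 over 7 genes. It was -0.293 over 496 genes of chromosome 14, -0.281 over 849 genes of chromosome 1, and -0.261 over 1159 genes of chromosome 11. The other autosomes and the X chromosome lay between -0.159 and 0.168. The female comparison of the same mutation had medians of 0.078 on chromosome 19, -0.312 on 4, -0.076 on 14, -0.059 on 1, and 0.035 on 11. Male Y217C and R172H, against the same p53 KO libraries as Y202C, had medians of 0.196 and 0.234 on chromosome 19, -0.085 and -0.121 on 4, -0.022 and -0.319 on 14, -0.148 and -0.205 on 1, and -0.140 and -0.114 on 11. On the Y chromosome their medians were -0.563 and -0.127. Copy number was not measured in these libraries.

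**Figure D4:**
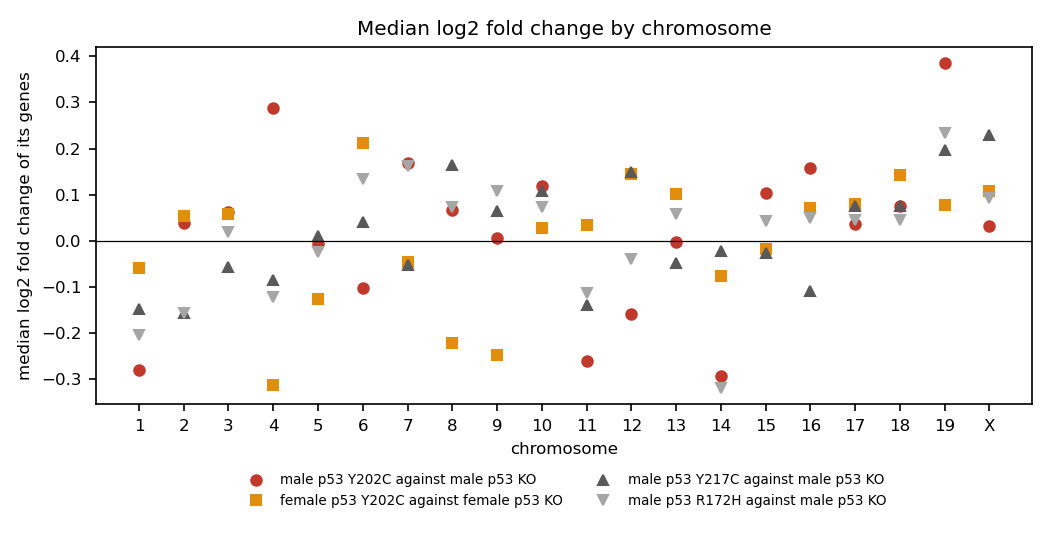
Median log2 fold change over the genes of each chromosome except Y (vertical axis) for p53 Y202C over p53 KO in males and in females, and for male p53 Y217C and male p53 R172H over the same male p53 KO libraries. In male Y202C chromosome 19 is highest at 0.385 and chromosome 14 lowest at -0.293, and in female Y202C chromosome 4 is at -0.312.

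The effect of p53 Y202C in males was tested against its effect in females, which rests on 6 other libraries, as a difference of log2 fold changes. Trp53 was at 601.7, 605.2, and 572.5 CPM in female Y202C, against 2444, 2268, and 2259 CPM in male Y202C. The part of this difference in the results below was not tested. The male effect was higher, that is more positive or less negative, for 4975 genes (34.5%). It was lower, that is less positive or more negative, for 4830 genes (33.5%). These numbers give the sign of the difference and not which sex responded more strongly. Genes of mitosis fell further in males, with a lower male effect for 23 of 28 and list medians of -1.281 in males and -0.577 in females. For replication the effect was lower in males for 28 of 42 genes, with medians of -1.007 and -0.525. The ATF4 list had a higher male effect for 15 of 21 genes, with medians of 1.126 and -0.246, and the lysosome list for 23 of 31, with medians of 0.881 and 0.375. Sterol synthesis had a lower male effect for 24 of 28 genes, with medians of -0.758 and 0.330. The widest gap in medians was in interferon-stimulated genes, at -0.467 in males and 2.332 in females, with a lower male effect for 21 of 24 genes, and cytokines and chemokines were at -0.407 and 1.970, with 17 of 24 lower. All 11 fibroblast markers had a lower male effect, with medians of -0.470 and 0.622.

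Single genes moved in opposite directions in the sexes. Of 1101 genes past the test and over 2-fold in both sexes, 1074 remained over 2-fold when lines whose libraries all had 3 counts or fewer were set to that floor. The direction was the same for 585 of these and opposite for 489, with 184 higher in male Y202C and lower in female Y202C, and 305 the reverse. Shtn1 (shootin-1), which links actin to adhesion in growing axons, was at 3.48, 2.92, and 2.67 CPM in male p53 KO and 78.4, 79.5, and 86.8 CPM in male Y202C, whereas its mean went from 6.82 CPM to 0.111 CPM in females (difference of effects 10.61, adjusted p = 2.33e-21). Ndnf, a secreted neuron-derived protein, went from 0.858, 0.994, and 0.952 CPM to 0.0901, 0.217, and 0.153 CPM in males, and its mean went from 0.267 CPM to 40.1 CPM in females (difference -9.88). Ric3, a chaperone of acetylcholine receptors, had a mean of 0.0657 CPM in male p53 KO and 2.82 CPM in male Y202C, and of 0.109 CPM in female p53 KO and 0 CPM in female Y202C, and Nog had means of 0.272 and 0 CPM in males and 0.502 and 4.02 CPM in females. The female culture is a different culture from different pups, and its Y202C line had lower Trp53 CPM. Sex, culture, and the level of Trp53 therefore cannot be told apart.

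The male culture also gave lines with p53 Y217C and with p53 R172H, made in the same way, and both were compared with Y202C directly so that p53 KO was not needed. Mean Trp53 was 2324 CPM in Y202C, 1215 CPM in Y217C, and 2287 CPM in R172H, and Y202C was above Y217C by 0.94 ± 0.053 on the log2 scale, whereas the difference from R172H was 0.02 ± 0.053 (adjusted p = 0.708). Against Y217C, 5478 genes were higher in Y202C (38.0%) and 5131 were lower (35.6%). Against R172H, 5330 were higher (36.9%) and 4968 were lower (34.4%). Genes of mitosis were lower in Y202C than in either line, for 26 of 28 genes each, and replication genes were lower for 36 and 39 of 42. Sterol genes were lower than in either line for 24 of 28, and ATF4 genes were higher than in Y217C for 17 and than in R172H for 15 of 21. The lysosome list gave another picture, with 11 of 31 genes higher and 9 lower than in Y217C, but 25 higher and 3 lower than in R172H. Imprinted genes were lower than in R172H for 15 of 19 and divided against Y217C, with 8 higher and 10 lower. Ribosomal protein genes were higher than in Y217C for 71 of 78 and higher than in R172H for 23 of 78.

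Against their common p53 KO libraries, which the male comparisons share, the medians for Y202C, Y217C, and R172H were -1.281, -0.258, and -0.100 for mitosis and -1.007, -0.071, and -0.089 for replication. They were 1.126, -0.227, and 0.350 for the ATF4 list, 0.881, 0.938, and 0.215 for the lysosome, and -0.758, 0.077, and -0.037 for sterol synthesis. For matrix genes they were -0.625, -0.753, and -0.031, and for imprinted genes -2.109, -2.214, and 0.098. Among single genes, Nlrp2 was at 0 CPM in R172H and at least 1130-fold higher in Y202C with the floor of 3 counts per library. Its mean in Y217C was 11.7 CPM. Sucnr1, the succinate receptor, was at 27.0, 34.8, and 36.2 CPM in Y202C. Its mean was 2.59 CPM in Y217C and 0 CPM in R172H. Sall1, a zinc finger transcription factor, and Pou3f2 (Brn2), a POU factor of neural progenitors, had means of 35.7 and 20.8 CPM in Y202C. Both were at 0 CPM in R172H. Their means were 59.3 and 21.1 CPM in Y217C and 8.07 and 2.84 CPM in male p53 KO, so the rise was shared with Y217C. Ptprz1, a receptor phosphatase of glial progenitors that binds pleiotrophin, was at 0.22, 0.488, and 0.488 CPM in Y202C against a mean of 128 CPM in R172H (difference -8.40). Its mean was 0.942 CPM in Y217C and 19.7 CPM in male p53 KO. Sparcl1 (hevin), a synapse-organizing protein of astrocytes, had a mean of 0.0349 CPM in Y202C and 53.3 CPM in Y217C (adjusted p = 1.83e-16). Its mean in male p53 KO was 0.0828 CPM.

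**Figure D5:**
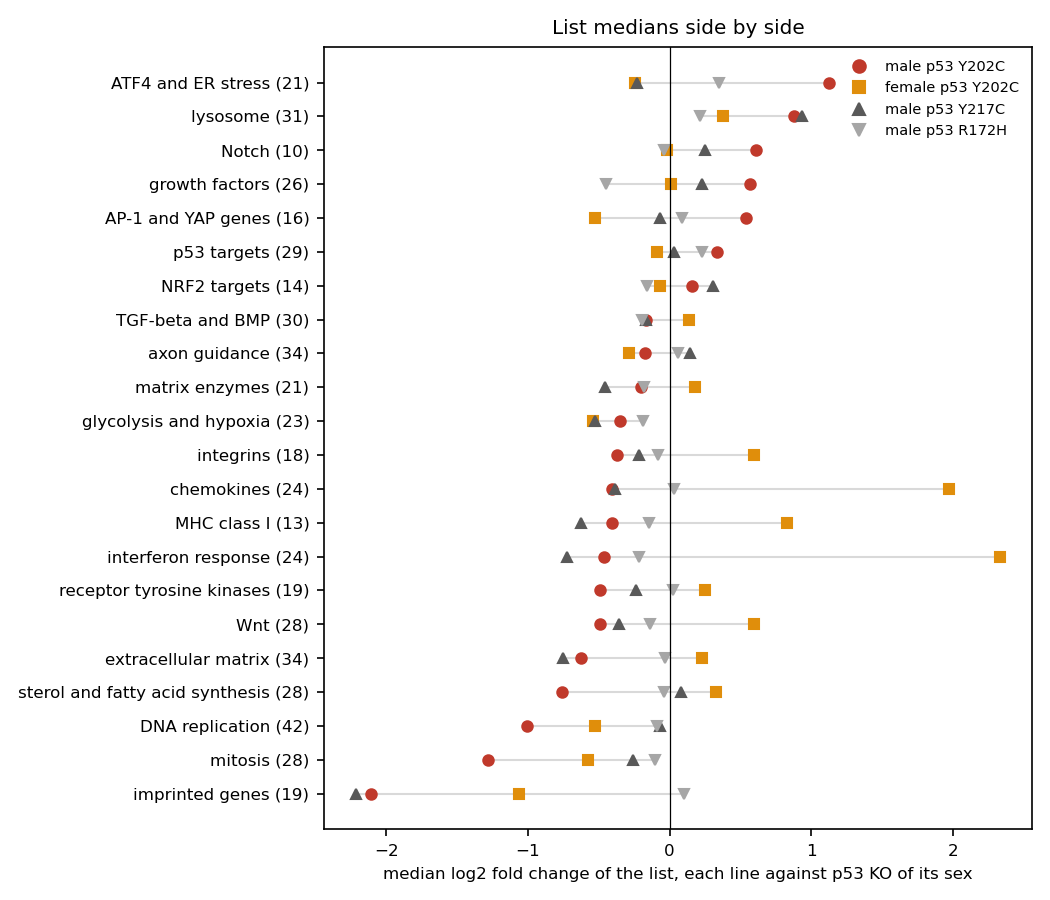
Median log2 fold change of each gene list over p53 KO of the same sex for male p53 Y202C, female p53 Y202C, male p53 Y217C, and male p53 R172H. The mitosis, replication, and sterol medians are lowest in male Y202C (-1.281, -1.007, and -0.758), the interferon median is highest in female Y202C (2.332), and the 3 male comparisons share their p53 KO libraries.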

How the data were processed

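RNA was sequenced from 24 libraries of 8 astrocyte lines, 3 libraries per line, and the 6 libraries of male p53 KO and male p53 Y202C were compared here. The authors aligned reads with STAR 2.5.1a, counted uniquely aligned reads per gene with Subread featureCounts, and deposited raw counts, without normalization, for 14427 genes. Every gene in the table exceeded 1 CPM in 3 or more libraries. The strand of counting is not given in the sources used here. Gene symbols and positions were taken from an annotation of GRCm38 by gene identifier, and 77 identifiers had none. Counts were fitted in R 4.3.3 with edgeR 4.0.16 (TMM over all 24 libraries, 1 mean per line, quasi-likelihood test, Benjamini-Hochberg adjustment, threshold 0.05). Each standard error is the absolute log2 fold change divided by the square root of the F statistic of this test. Its spread is thus estimated over all 24 libraries and not from the compared libraries alone. Total counts per library were 66162441 to 131836636, and a count of 3 per library was taken as the floor for lower bounds of folds, which covers counting error only. The fit was tested before use on simulated data in which few genes changed, and only in the male Y202C line. In the real data 73.0% of genes passed, so the simulation cannot show how the fit performs in that setting. Alternatives were DESeq2 1.42.0, limma 3.58.1 with voomWithQualityWeights, DESeq2 size factors, a filter at 5 CPM, other thresholds, a fit of the compared lines alone, no ribosomal protein genes, a replicate block, and leaving out each replicate.

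The members, the gene lists, and the rule for named genes were chosen with earlier results of these data known. The rule took Trp53, the 12 largest rises and falls, the 3 largest rises and falls and the most abundant members of each list, and the 5 largest differences from the other lines in each direction, among called genes whose higher line had 10 or more counts in each library and did not overlap the other line. Some of these were left unnamed. Other genes, such as Cdkn1a, Mki67, and Axin2, were named for their known roles after their values were seen. Gene pairs that overlap in the annotation, whose reads cannot be separated if strand was not used, include Ddit3 and Mars, Timp3 and Syn3, Kif20a and Cdc23, Ctsa and Neurl2, Tap1 and Psmb9, and Igf2r and Airn.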

Additional observations from a re-analysis of the deposited data

Results flagged for a closer look

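The effect of p53 Y202C differed between males and females by edgeR's test of the difference itself, with 4975 genes higher and 4830 lower in the male effect. Among the genes named in the text, those below passed the test and changed over 2-fold in both sexes, in opposite directions. Each value is the male log2 fold change minus the female one. The cultures of the sexes come from different pups, and Trp53 CPM was lower in female than in male Y202C. Sex, culture, and the level of Trp53 therefore cannot be told apart. Where a line had at most 3 counts in every library, that floor stands for it and the value is a lower limit of the size of the difference.

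Genes that rose in male Y202C and fell in female Y202C included the transcription factors Sox2, with a difference of at least 7.69, Pou3f3 of at least 6.90, Sall1 of at least 4.90, and Lhx2 of 7.09. Genes of signaling in this direction were Nrarp at 5.56, Pdgfd at 4.10, and Id4 at 3.67. The stress cytokine Gdf15 differed by 7.29, the p53 target Pmaip1 by 4.97, the G1 cyclin Ccnd1 by 2.82, and the YAP gene Ankrd1 by 4.02. Shtn1 differed by 10.61, the neuronal gene Map2 by 5.04, and Ric3 by at least 6.65.

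Genes that fell in male Y202C and rose in female Y202C included the chemokines Ccl2 (-3.30) and Ccl7 (-4.23), the alarmin Il33 (-9.60), and the antigen processing genes Tap1 (-3.05) and Psmb9 (-4.22), which lie next to each other. The matrix and adhesion genes of this kind were Col3a1 (-2.92), Thbs2 (-5.32), Itga2 (-4.37), Ltbp2 (-5.87), and Cdh5 (-7.48). Secreted factors and inhibitors were Ptn (-4.77), Tgfb3 (-3.09), Fst (-5.77), Nog (-5.81 as a lower limit of the size), Wnt2 (-6.25), Igfbp2 (-5.10), Dlk1 (-5.57), and Ndnf (-9.88). The receptor Pdgfra differed by -6.86, Id2 by -3.57, the synaptic gene Syt1 by -5.50, and the detoxification genes Nqo1 and Gsta4 by -2.31 and -2.54.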

How the results depend on the processing

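The number of genes past the test stayed within 1.5 times the reported number under every alternative run, at 4277 to 5684 higher and 4157 to 5312 lower, and so did the numbers for the difference between male and female effects and for the comparisons with p53 Y217C and p53 R172H. For genes over 2-fold, the filter at 5 CPM left 928 higher and 1000 lower, which follows from fewer genes being tested. A log2 threshold of 0.5 gave 3293 and 3238, and one of 2 gave 509 and 453. DESeq2 shared 5402 higher and 5103 lower genes with the reported fit, and limma shared 5346 and 4997. The median over all genes lay between -0.019 and 0.018 under the alternatives, so none shifted it by more than 0.031. TMM and DESeq2 size factors both assume that most genes are unchanged and hold this median near 0. The range therefore cannot show whether that assumption holds here. The libraries share only a replicate number. Deviations of same-numbered p53 KO and Y202C libraries correlated at 0.048, 0.029, and 0.014 over genes, and the replicate block gave 5379 higher and 5060 lower genes, with 5371 and 5043 shared. Of 962 numbers of called genes per list, 43 moved by over 1.5 times, 16 of them under the 5 CPM filter, which tests fewer genes. The other 27 concerned 7 lists, mostly small numbers, such as the replication genes called higher (2, and 0 without p53 KO replicate 2 or 3 or Y202C replicate 1 or 2), the Hox genes called higher (2, and 0 without p53 KO replicate 1), and the relatives of p53 and interferon genes given above. For the 249 genes named beside Trp53, 3148 of 3203 values kept their direction and their side of the threshold, and none changed direction. The calls of Axin2, Cdt1, Hes1, Mcm2, Mid1-ps1, Notch3, Trp63, Ttc29, and Vim were lost in at least 1 setting, for Ttc29 in DESeq2 (adjusted p = 0.0983) and for Vim without each of 4 libraries (adjusted p = 0.0753 to 0.120). Itgb1 passed in 7 settings (adjusted p = 0.00238 in limma), Cdc23 in 3, Gm21742 in 2, and Igf2r, Sparcl1, and Srebf2 without 1 library each. Because the platings come from 1 line each, the depth does not limit these comparisons for well-expressed genes, and the number of lines does.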

Other observations

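Transcription factors of embryonic patterning moved in both directions, and the single genes below were picked after their values were seen. Sox2 is also among the astrocyte markers counted above, and the others were on no list. Sox2, which maintains neural progenitors, was at 22.4, 25.3, and 25.8 CPM in p53 KO and at 154, 150, and 146 CPM in Y202C (log2 2.61 ± 0.071, adjusted p = 1.87e-18). Lhx2 and Emx2, which pattern the cortex, rose by 4.99 ± 0.13 and 2.23 ± 0.067, and the POU factor Pou3f3 rose by 2.33 ± 0.080. In none of these 4 genes did the libraries overlap, which also held for 74.9% of all genes. Lmx1b, a LIM homeobox factor of midbrain, limb, and kidney, went from 25.4, 29.7, and 29.5 CPM to 0.591, 0.596, and 0.519 CPM (-5.62 ± 0.12). Msx2 fell by 3.40 ± 0.13, and Zic1 and Zic2, which are active in cerebellum and meninges, fell by 1.92 ± 0.048 and 2.69 ± 0.058. Mean Sox2 was 193 CPM in male Y217C, 1.86 CPM in male R172H, 1.59 CPM in female p53 KO, and 0.0124 CPM in female Y202C, and mean Pou3f3 in these lines was 207, 0.0150, 1.12, and 0.00426 CPM.

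Single genes known from neurons also moved in both directions and were likewise picked after their values were seen, beside the neuron markers of the report, of which 2 rose and 2 fell. Tenm4, a teneurin of axon guidance and myelination, went from 2.86, 2.89, and 3.56 CPM to 208, 192, and 197 CPM (log2 6.00 ± 0.12). Avil, a villin-like actin regulator of sensory neurons, went from 1.76, 2.52, and 2.75 CPM to 167, 200, and 178 CPM (6.25 ± 0.18). The postsynaptic scaffold Dlg2 rose by 5.87 ± 0.24, while Kif1a, a motor of axonal transport, fell by 5.29 ± 0.15. Mean Tenm4 was 15.4 CPM in male Y217C, 8.62 CPM in male R172H, and 17.5 CPM in female Y202C.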
